A study of Mus musculus with 4 samples.

Results

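The sites described here are accessible regions that lay away from gene starts and were called in WT hematopoietic stem cells (HSCs) but not in Med23-deficient (KO) HSCs. They were chosen by measured values, namely the presence of a call in the WT peak list and its absence from the KO peak list. A WT peak was taken when it lay on an autosome, shared no base with any KO peak, had its summit more than 2500 bp from every GENCODE M21 transcription start site and was at least 400 bp wide. Of the 37919 WT peaks, 2448 met these conditions, and the KO list held 37639 peaks. ATAC-seq, in which a transposase cuts and tags open DNA, had been applied to 5000 sorted bone marrow cells per sample from C57BL/6 mice carrying floxed Med23. The WT mice had no cre, and the KO mice also carried Mx1-cre, whose interferon-inducible promoter was switched on by poly(I:C) and acts in many cell types besides HSCs. In the paper's blood counts, both WT and KO mice had received poly(I:C), and its text does not state this separately for the ATAC-seq mice. HSCs were sorted as lineage-negative Sca-1+ c-Kit+ cells with CD150 and without CD48, and the labels add the absence of CD34. The mice were adult, and an exact age is not given in the sources used here. There were 2 labelled samples per genotype, but both were represented by the same peak list, so 1 WT list was set against 1 KO list. No difference below has a replicate check, and no p-value is given.

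Open chromatin away from gene starts often marks enhancers, which are stretches of DNA where transcription factors bind and from which they act on genes that can lie far away. Mediator is a multi-subunit complex that links such factors to RNA polymerase II, and Med23 encodes a subunit of its tail module. In HSCs, the factors known to occupy distal elements include RUNX1, GATA2, members of the ETS family and E-box binding proteins such as TAL1. The peak lists show that DNA was open, not that a site acts as an enhancer or on which gene. Each site was given the name of the protein-coding gene with the nearest start, as a label of place.

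Windows of 200 bases around the summit are shown for the 5 sites with the highest fold enrichment and for the strongest site assigned to each of the stem cell, myeloid and lymphoid gene lists described further on. They are the forward strand of GRCm38 (mm10), written 5′ to 3′. Capitals mark matches, on either strand, to 12 consensus letter strings for blood and general transcription factors, which are spelled out with the motif results.
Serpinb1b site, chr13:33113149-33113348: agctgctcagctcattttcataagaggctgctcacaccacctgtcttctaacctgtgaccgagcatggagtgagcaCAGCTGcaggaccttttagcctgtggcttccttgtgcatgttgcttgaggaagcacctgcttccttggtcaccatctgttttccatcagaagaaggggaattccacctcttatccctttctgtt
BC017158 site, chr7:128333016-128333215: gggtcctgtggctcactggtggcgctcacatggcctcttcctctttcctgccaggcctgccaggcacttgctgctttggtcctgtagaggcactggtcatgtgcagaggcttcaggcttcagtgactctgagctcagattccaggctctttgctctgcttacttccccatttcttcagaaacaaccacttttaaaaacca
Adgrl3 site, chr5:80791754-80791953: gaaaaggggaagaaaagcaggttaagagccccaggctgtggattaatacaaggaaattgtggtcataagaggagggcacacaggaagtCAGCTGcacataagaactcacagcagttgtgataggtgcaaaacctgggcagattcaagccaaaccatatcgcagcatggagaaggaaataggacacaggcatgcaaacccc
Lrig3 site, chr10:125994883-125995082: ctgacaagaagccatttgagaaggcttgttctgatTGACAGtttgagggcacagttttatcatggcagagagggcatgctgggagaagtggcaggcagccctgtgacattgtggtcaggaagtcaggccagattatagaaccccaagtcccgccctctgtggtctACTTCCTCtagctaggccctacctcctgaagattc
Mtx2 site, chr2:75019524-75019723: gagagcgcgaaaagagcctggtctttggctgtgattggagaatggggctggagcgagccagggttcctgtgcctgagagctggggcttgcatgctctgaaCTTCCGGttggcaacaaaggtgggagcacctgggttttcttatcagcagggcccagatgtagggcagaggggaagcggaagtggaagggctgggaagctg
Runx1 site, chr16:92927828-92928027: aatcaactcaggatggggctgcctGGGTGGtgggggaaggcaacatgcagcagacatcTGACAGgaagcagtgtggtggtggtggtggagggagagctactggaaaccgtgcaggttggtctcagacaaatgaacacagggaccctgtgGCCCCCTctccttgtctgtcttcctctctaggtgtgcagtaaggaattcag
Lyz2 site, chr10:117285411-117285610: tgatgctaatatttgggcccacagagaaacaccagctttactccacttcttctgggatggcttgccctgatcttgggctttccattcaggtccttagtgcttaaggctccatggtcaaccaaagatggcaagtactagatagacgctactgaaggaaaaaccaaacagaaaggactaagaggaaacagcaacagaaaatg
Gata3 site, chr2:9362096-9362295: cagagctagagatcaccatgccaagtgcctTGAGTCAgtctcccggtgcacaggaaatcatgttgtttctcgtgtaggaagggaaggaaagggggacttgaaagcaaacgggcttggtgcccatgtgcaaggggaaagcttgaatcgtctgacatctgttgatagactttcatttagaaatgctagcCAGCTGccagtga

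The Serpinb1b, Adgrl3 and Gata3 windows held the E-box CAGCTG, and the Gata3 window also held the AP-1 letters. In the Lrig3 window, the PU.1 letters stood on the reverse strand and the MEIS letters on the forward strand. The Mtx2 window held the ETS letters, and the Runx1 window held the CTCF, MEIS and KLF letters. The BC017158 and Lyz2 windows held none of the 12 strings. A match describes letters only, and a window with no match tells nothing about which factors bound there.

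The cells were checked against marker genes by counting peaks within 1000 bp of their starts. Of 10 HSC genes, 7 had a peak in each list, among them Mecom, Hlf, Meis1 and Kit, and Ly6a, Slamf1 and Procr had none in either. Each of the T cell, B cell, granulocyte and monocyte, and erythroid lists had 1 gene with a peak in each genotype. The number of reads behind each list is unknown. The pileup, the number of fragments or reads stacked at a summit, could be recovered from the deposited statistics, and its median was 18 over WT peaks and 19 over KO peaks, with a lowest value of 6 in both lists.

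Distal sites found in WT alone were a minority of distal sites, and the KO list held nearly as many of its own. Among the 12715 distal WT sites of the same minimum width, 19.3% had no KO overlap (95% Wilson interval 18.6 to 19.9). In the KO list, 2324 of 12846 distal sites, 18.1%, overlapped no WT peak. The Wilson intervals here and below cover counting error over sites only. Without the limit on width, 5965 distal WT-only peaks were left on the autosomes. Across chromosomes, the share of distal WT sites with no KO overlap ran from 16.7% on chromosome 3 to 22.1% on chromosome 14.

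The distal WT-only sites were weak peaks. Fold enrichment is the summit pileup over the local background as the peak caller computes it, with 1 added to each before dividing. For these sites it had a median of 4.91 (quartiles 4.10 and 5.93), with a lowest value of 2.49 and a highest of 12.5. The median summit pileup was 11 (quartiles 9 and 13), and 1 site reached 43. For the 10267 distal WT sites that overlapped a KO peak, the median fold enrichment was 7.05 and the median pileup 19. The sites were also narrower, with a median width of 533 bp against 688 bp. Only 110 of the 2448 sites (4.49%) had a pileup of at least 20, against 49.2% among overlapped ones. These values are a description, since a weak peak is more easily missed in the other list and the choice of sites used those calls. The 10th percentile of summit pileup in the KO list was 9, and 910 of the sites (37.2%) were at or under that level in WT.

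**Figure D1:**
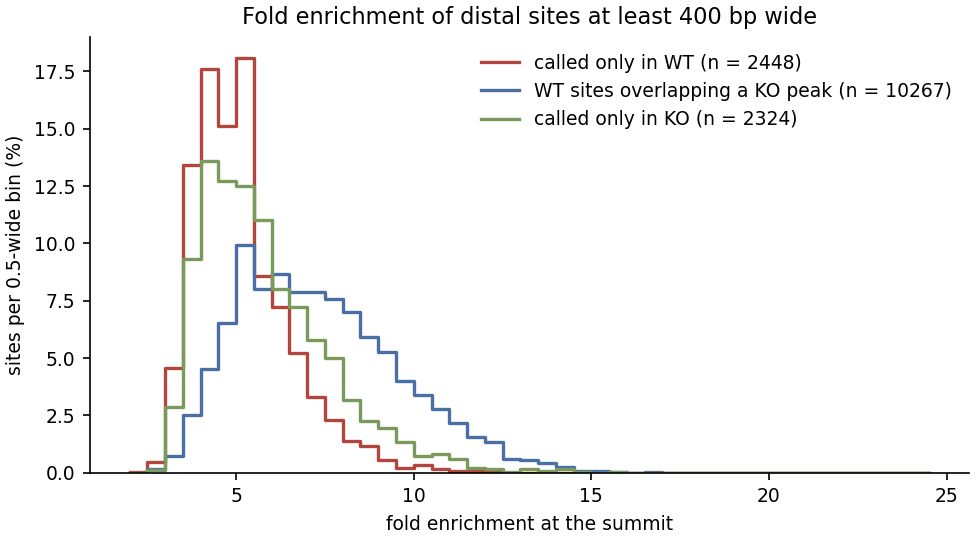
Distribution of the authors' fold enrichment at the summit (horizontal axis, linear ratio) as the percentage of sites in each 0.5-wide bin, for distal sites called only in WT, distal WT sites overlapping a KO peak and distal sites called only in KO. The WT-only curve lies furthest to the left, with a median of 4.91 against 7.05 for overlapped WT sites and 5.39 for KO-only sites.

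The share of distal WT sites with no KO overlap fell steadily with the WT pileup. It was 69.4% at a pileup of 6 to 8 (588 of 847 sites), 26.4% at 12 to 14, 8.42% at 18 to 20 and 2.04% at 26 to 30. At a pileup of 41 or more, 1 of 1137 sites had no KO overlap, or 0.088%. By width, the share was 34.2% from 400 to under 500 bp and 5.12% at 1000 bp or more. KO-only distal sites, at a median fold enrichment of 5.39 and a median pileup of 12, were as a group somewhat stronger in their own list than the WT-only sites were in theirs. The lists differ in background and have no common scale, so those values are set side by side only.

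**Figure D2:**
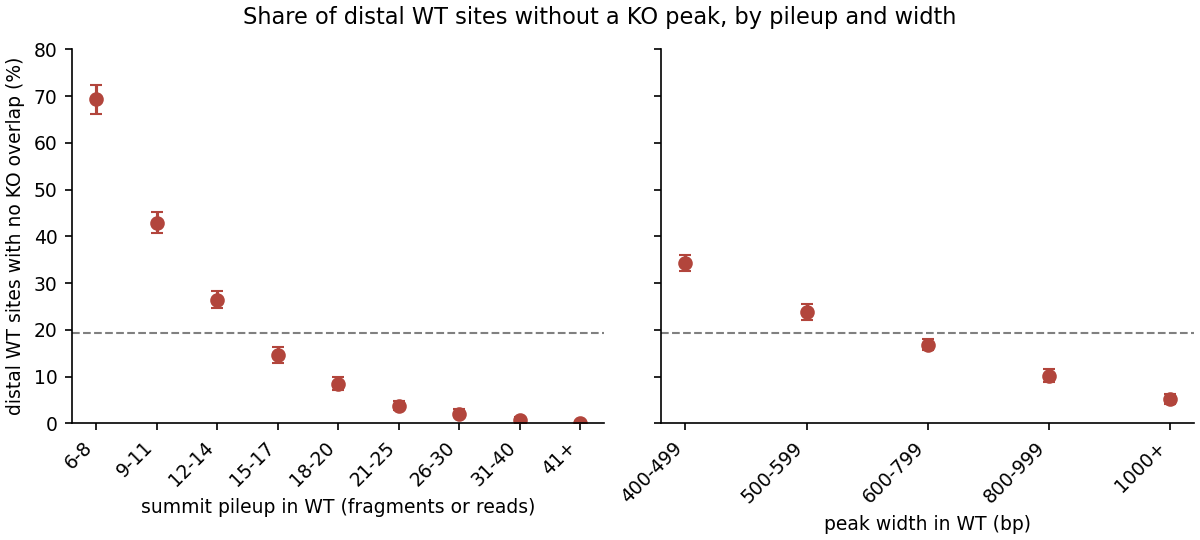
Percentage of distal WT sites with no KO overlap (vertical axis) by summit pileup (left) and by peak width in bp (right), with 95% Wilson intervals as bars and the share over all distal WT sites, 19.3%, as a dashed line. The share falls from 69.4% in the lowest pileup group to 0.088% in the highest and from 34.2% to 5.12% with width.

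Because pileup separated the sites so strongly, their other features were also compared at like pileup. For that purpose, the 1284 WT-only sites with a pileup of 9 to 13, the middle 50% of the sites, were set against the 2211 overlapped distal WT sites in the same range. The match was not exact. Within the range, pileup quartiles were 9 and 12 for the WT-only sites and 10 and 13 for the overlapped sites. Median widths were 543 bp and 583 bp, so peak strength was only partly matched. KO-only sites were compared at any pileup. Differences of shares carry 95% Wald intervals, which cover counting error over sites only.

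Distal WT-only sites lay in introns and between genes in about equal parts. Of the 2448 summits, 1210 were intronic (49.4%, 95% Wilson interval 47.5 to 51.4), 1141 were intergenic (46.6%, 44.6 to 48.6) and 97 were in an exon (3.96%), of which 41 were in a UTR, 30 in coding sequence and 26 in other exons. The overlapped distal WT sites were 50.3% intronic, a difference of -0.83 percentage points (-3.03 to 1.37). At like pileup, the difference was -0.0427 points (-3.48 to 3.40). KO-only distal sites were 53.6% intronic, and the WT-only sites were 4.14 points below them (difference -4.14, -6.98 to -1.31).

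**Figure D3:**
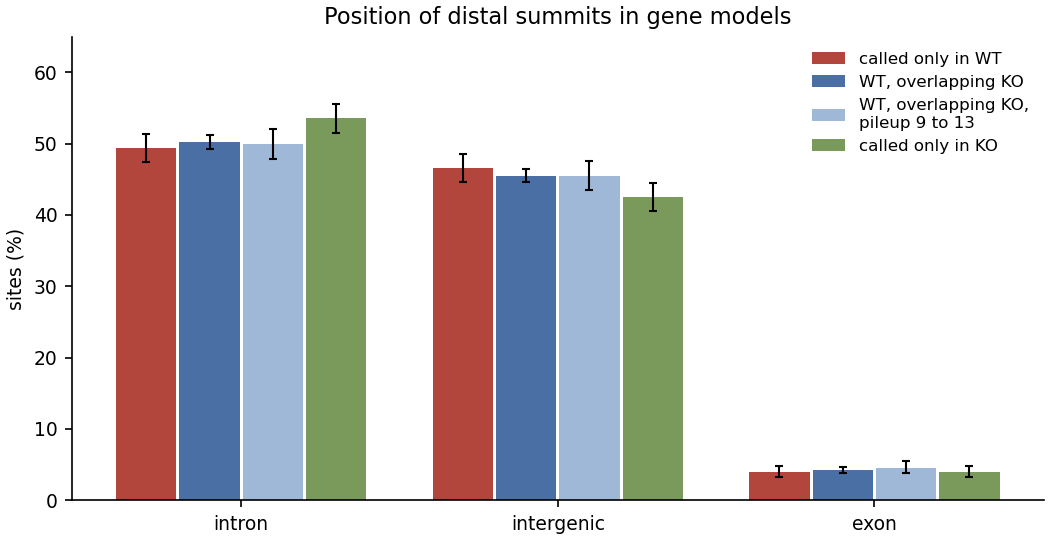
Percentage of distal summits (vertical axis, from 0) in introns, between genes and in exons of GENCODE M21 gene models for 4 groups of sites, with 95% Wilson intervals. WT-only sites (49.4% intronic) stand close to both groups of overlapped WT sites, and KO-only sites (53.6%) stand higher.

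The sites were spread widely around genes. The median distance from a summit to the nearest start of any annotated gene was 13850 bp (quartiles 7026 and 30160 bp), and that start belonged to a protein-coding gene for 51.9% of the sites and to a lincRNA for 12.1%. To the nearest protein-coding start, 574 sites (23.4%) lay within 10 kb, 1072 (43.8%) between 10 and 50 kb, 357 (14.6%) between 50 and 100 kb and 445 (18.2%) farther than 100 kb. At like pileup, 17.4% of the WT-only sites and 20.2% of the overlapped sites were more than 100 kb from a protein-coding start, a difference of -2.85 points (-5.51 to -0.186). Over all pileups, the same shares were 18.2% and 18.4%, and their difference had an interval that included 0 (-1.94 to 1.46). The median GC content of the 200-bp windows was 48.0%, against 49.5% for the overlapped sites and 48.5% for those of like pileup.

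Few of the sites lay within 1000 bp of a KO peak, and few lay within 10 kb of each other. The gap to the nearest KO peak had a median of 14720 bp (quartiles 6435 and 33700 bp). A KO peak lay within 1000 bp of 133 sites (5.43%) and within 10 kb of 941 (38.4%), and 162 (6.62%) had none within 100 kb. For KO-only distal sites, the median gap to the nearest WT peak was 11650 bp, and 44.8% had a WT peak within 10 kb. Another WT-only distal site lay within 10 kb of 105 sites (4.29%) and within 50 kb of 378 (15.4%).

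Windows made mostly of repeats were more frequent among the WT-only sites than among the overlapped ones. In 153 of the 2448 windows (6.25%, 95% Wilson interval 5.36 to 7.28), over 50% of the bases were masked as repeats, against 2.96% of the overlapped sites, a difference of 3.29 points (2.28 to 4.30). At like pileup, the shares were 5.45% and 3.62%, a difference of 1.83 points (0.368 to 3.30). The corresponding share of KO-only sites was 4.95%, and the interval of its difference from the WT-only sites ran from -0.00105 to 2.60 points. Reads that map to several places can be lost or misplaced in such windows, and how multiply mapping reads were handled is not given in the sources used here.

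The 20 sites with the highest fold enrichment ranged from 9.90 to 12.5, and 12 of them were intergenic, 6 intronic, 1 in a UTR and 1 in a coding exon. The strongest (chr13:33112965-33113651, 687 bp) lay in an intron of Gm11384, 29.1 kb from the start of Serpinb1b, a gene of the serine protease inhibitor family. Its summit pileup in WT was 31 over a background of 1.57, a fold enrichment of 12.5, and the nearest KO peak was 28.6 kb away. The next (chr7:128332723-128333170) was in an intron of Gm6916 near BC017158, with a pileup of 27 and a fold enrichment of 12.3. A site upstream of Adgrl3, which encodes a latrophilin adhesion receptor, lay between genes, 228 kb from the start (chr5:80791401-80792052), and reached a pileup of 29 and a fold enrichment of 11.7. A site in an intron of Lrig3 (chr10:125994635-125995144), which encodes a leucine-rich repeat membrane protein, was the one among the 5 strongest that lay inside the protein-coding gene it was named after, with a pileup of 27 and a fold enrichment of 11.7. The fifth, at a fold enrichment of 11.4 with 30 reads or fragments at the summit, lay 151 kb from Mtx2, which encodes a mitochondrial outer membrane protein (chr2:75019373-75019791).

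Among the other 15 strong sites, a site 9.80 kb upstream of Dapp1, an adaptor of phosphoinositide signalling in B cells, had a pileup of 40 over a background of 2.61, with a fold enrichment of 11.4 and a KO peak 6.41 kb away. A site 49.3 kb upstream of Trib1, in an intron of the neighbouring gene Nsmce2, was enriched 10.4-fold at a pileup of 26. Trib1 encodes a pseudokinase that directs the breakdown of the myeloid factor C/EBPα. A site 18.8 kb upstream of Tifab, which encodes a regulator of TRAF6 signalling in blood cells, was enriched 10.2-fold at a pileup of 24. The Trim24 site, 156 kb upstream of that chromatin reader and ubiquitin ligase gene, was enriched 10.2-fold at a pileup of 25.

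The remaining strong sites were named after genes of many functions. The Plppr1 site (fold enrichment 10.98) was intronic, as was the site in Abca13 (10.4), a gene of the ABC transporter family. Intergenic sites were assigned to Olfr877, an olfactory receptor gene (10.9), to the growth factor gene Fgf6 (10.9), to the homeobox gene Nkx6-1 (10.9) and to Bckdhb (10.5), which encodes a subunit of the branched-chain ketoacid dehydrogenase. Others were assigned to the ubiquitin-conjugating enzyme gene Ube2e3 (10.3), to the adhesion gene Ncam2 (10.2) and to Mpped2 (9.90). The Smyd3 site (10.5) was in a UTR of that lysine methyltransferase gene, and the nearest KO peak was 279 kb away. The Adam32 site (9.90) was in a coding exon. The 110 sites with a pileup of at least 20 had a higher median background than the full set, 1.97 against 1.19, and 43.6% of them were intronic (34.7 to 53.0).

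The 2448 sites were assigned to 2018 of the 20780 autosomal protein-coding genes, 9.71%, and most genes had only 1. A single site was assigned to 1678 genes, 2 sites to 272, 3 sites to 54 and 4 or more to 14. Of the 6087 genes with any distal WT site, 33.2% had a WT-only one, and for 757 genes every distal WT site was WT-only. Among the 2810 genes with at least 2 distal WT sites, this held for 63. KO-only distal sites were assigned to 1878 genes. The genes in both sets numbered 552, which is 27.4% of the genes with a WT-only site and 29.4% of those with a KO-only site. No share over all genes with a distal site in either list stands beside these values. They therefore do not show whether the sets lay near the same or different genes.

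Auts2, a long gene known for its part in brain development and as a partner of a Polycomb complex, had the most, with 8 of its 14 distal WT sites missing from the KO list. The KO list held 7 distal sites for Auts2, 1 of them without WT overlap. Of the 8 sites, 3 were in introns of Auts2 and 5 between genes. Their pileups in genomic order were 10, 10, 13, 10, 7, 6, 15 and 8, and their fold enrichment ran from 3.19 to 6.60. The closest KO peak to any of them was 34984 bp away, so none bordered a KO peak.

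Angpt1, which encodes the ligand of the receptor tyrosine kinase Tek (Tie2) and is known for its link to HSC quiescence, had 5 WT-only sites among 9 distal WT sites, and the KO list held 5 distal sites for it. Of the 5, 4 were in introns of Angpt1 and the fifth was upstream of the start, in an intron of Gm17473. In genomic order, their pileups were 7, 10, 12, 9 and 10 and their fold enrichment was 3.65, 5.01, 4.75, 4.56 and 5.01. All 5 were weak peaks, the highest of them at percentile 21.9 of the distal WT sites by fold enrichment.

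Zeb2, a zinc finger repressor gene needed for blood cell differentiation, had 5 WT-only sites among 18, with pileups of 14, 7, 9, 7 and 13. Nrip1, a gene for a corepressor of nuclear receptors, had 5 among 12. The Nrip1 sites included 1 with a pileup of 33 over a local background of 8.25 (chr16:76377374-76377811), which gave a fold enrichment of only 3.68, with a KO peak 3310 bp away. Another, in an intron of Nrip1, had a pileup of 23 over a background of 3.16, with a KO peak 1950 bp away. The KO list had no distal KO-only site for either gene, and held 14 distal sites for Zeb2 and 7 for Nrip1.

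Among genes of neurons and adhesion, Dlg2, which encodes a synaptic scaffold, had 5 WT-only sites among 16, all in its own introns, with pileups of 13, 14, 10, 8 and 20. Adgrl2, a latrophilin gene, had 4 among 26, with pileups of 17, 10, 10 and 16. Ankrd55 had 4 of 5 distal WT sites missing from the KO list, with pileups of 15, 12, 14 and 10, and the KO list held 1 distal site for it. The nearest KO peaks to these Ankrd55 sites were 13124 to 36881 bp away. Outside the rule for naming genes, and after their values were seen, 4 genes were noted whose distal WT sites, at least 3 of them, were all WT-only. That is 4 of the 1510 genes with at least 3 distal WT sites. They were Commd9, Etl4, Nrcam and Ralgps2, each with 3, and the KO list held 1 distal site for Etl4 and none for the other 3.

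Fixed lists of genes were then used to ask near which kinds of genes the sites lay. For each list, the WT-only sites are given as a share of the list's distal WT sites, to be read against the share of 19.3% over all genes, and the intervals are Wilson intervals. The intervals of all 10 lists included 19.3%, so no list was set apart from the distal WT sites as a whole. Among distal WT sites with a pileup of 9 to 13, 36.7% were WT-only over all genes. The share at that pileup was 21.7% for stem cell genes (5 of 23), 20.8% for lymphoid genes (5 of 24), 33.3% for adhesion genes (8 of 24) and 35.1% for long neuronal genes (13 of 37). It was above that of all genes for chromatin regulators and Mediator (38.9%, 7 of 18) and for cytokine and TGF-beta signalling (41.2%, 7 of 17), whose shares over all pileups were below. Myeloid genes had 3 of 5 and megakaryocyte and erythroid genes 3 of 6.

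**Figure D4:**
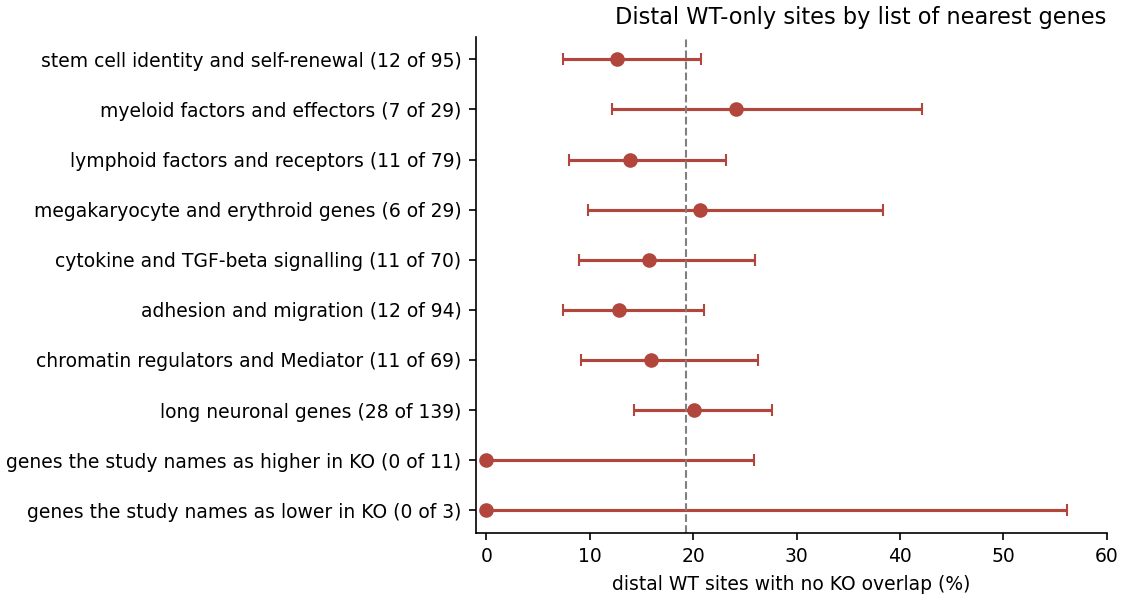
Percentage of distal WT sites with no KO overlap (horizontal axis) for sites whose nearest protein-coding start belongs to each of 10 gene lists, with 95% Wilson intervals as bars, the counts in parentheses, and the share over all genes, 19.3%, as a dashed line. The interval of every list with a site called only in WT crosses the dashed line.

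Genes of stem cell identity and self-renewal had 12 WT-only sites among 95 distal WT sites (12.6%, 7.38 to 20.8), assigned to 9 of 28 genes. In the KO list, 19 of the 101 distal sites of these genes (18.8%) overlapped no WT peak. The site named after Runx1, the transcription factor gene required for the emergence of HSCs, lay between genes, 102 kb upstream (chr16:92927040-92928473). It reached a pileup of 16 and a fold enrichment of 7.74, the highest in the list, and was 1 of 8 distal WT sites of Runx1. The site of Kit, the receptor of stem cell factor, lay 109 kb upstream (chr5:75465811-75466609) with a pileup of 14 and a fold enrichment of 6.84, and no KO peak came closer than 108 kb. The site of Lmo2, which encodes the adaptor of the TAL1 complex, had a pileup of 33 but over a local background of 4.13, with a fold enrichment of 6.62. The site of Meis1, a homeobox gene of HSC self-renewal, had a pileup of 12 and was the only WT-only site among 11 distal WT sites. Most distal WT sites of these 4 genes thus overlapped a KO peak. Among the other genes of the list, Etv6 had 3 WT-only sites among 11 and 5 KO-only sites among 14, and Mecom had 1 among 8 and 3 among 11.

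Genes of differentiated lineages gave small counts. Myeloid factors and effectors had 7 WT-only sites among 29 (24.1%, 12.2 to 42.1), megakaryocyte and erythroid genes had 6 among 29 (20.7%, 9.85 to 38.4) and lymphoid factors and receptors had 11 among 79 (13.9%, 7.96 to 23.2). When sites were instead named after the nearest start of any kind of gene, the lymphoid share was 32.0% (17.2 to 51.6), above 19.3% instead of below it, and the megakaryocyte and erythroid share was 15.4% (4.33 to 42.2). The only distal WT site assigned to Spi1, which encodes the myeloid and lymphoid factor PU.1, was WT-only. It lay 3.76 kb upstream of the start (chr2:91078378-91078820) and had a pileup of 20 over a background of 3.78, a fold enrichment of 4.40, with a KO peak 3.57 kb away. Lyz2, the lysozyme gene of granulocytes and macrophages, had 1 distal WT site, which was WT-only with a pileup of 13, and 1 distal KO site, which was KO-only, 2.78 kb being the gap from the WT site to the nearest KO peak. The sites of Gfi1, a repressor gene of myeloid differentiation, and of the calcium-binding protein gene S100a8 had pileups of 9 and 8. The strongest lymphoid site was named after Gata3, the T cell factor gene, whose start was 511 kb away. It lay in an intron of Gm13219 (chr2:9361601-9362447) with a pileup of 18, a fold enrichment of 8.66 and no KO peak within 231 kb. Lef1 (fold enrichment 6.77, pileup 16), a Wnt effector gene, Satb1 (5.21, pileup 12), a chromatin organiser gene, and Dntt (5.13, pileup 11), which encodes terminal transferase, followed. Among megakaryocyte and erythroid genes, the site in an intron of the platelet integrin gene Itgb3 had a pileup of 10, the sites of the platelet receptor gene Gp1ba and the erythroid ankyrin gene Ank1 had 8 each, and the stronger of 2 sites of Fli1, an ETS factor gene, had 12. Each of these 4 pileups was at or below 12, near the median of 11 for all the sites.

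Genes of signalling and adhesion had shares below 19.3%, with intervals that included it. Cytokine and TGF-beta signalling genes had 11 WT-only sites among 70 (15.7%, 9.01 to 26). In this list, 2 of 3 distal WT sites of Smad6, which encodes an inhibitory SMAD, and 2 of 4 of Tgfbr3, which encodes the coreceptor betaglycan, were WT-only, and neither gene had a KO-only site. Their strongest sites had pileups of 13 and 15. The single distal WT site of Bmpr1a, a BMP receptor gene, was WT-only with a pileup of 14, 5.00 kb upstream of the start. The site of Socs1, an inhibitor of JAK and STAT signalling, was in an intron of Clec16a with a pileup of 13 and a fold enrichment of 6.38. Adhesion and migration genes had 12 WT-only sites among 94 (12.8%, 7.46 to 21), and 21 of their 103 distal KO sites (20.4%) were KO-only. The chemokine gene Cxcl12 had 1 of 2 distal WT sites in the WT-only set and its receptor gene Cxcr4 had 2 of 7, and the strongest of each had pileups of 12 and 10. The sites of the hyaluronan receptor gene Cd44 and the endothelial cadherin gene Cdh5 had pileups of 11 and 10.

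Chromatin regulators and Mediator subunits had 11 WT-only sites among 69 (15.9%, 9.14 to 26.3). The strongest was in an intron of the chromatin remodeller gene Chd7, at a fold enrichment of 6.97 with 15 reads or fragments at the summit. Med13, which encodes a subunit of the Mediator kinase module, had 1 distal WT site, which was WT-only with a pileup of 11, and its paralog Med13l had 2 among 8, the stronger with a pileup of 12, and 2 KO-only sites among 9. Jarid2, a Polycomb cofactor gene, had 1 among 5, with a pileup of 11.

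The long neuronal genes, which were listed because they offer much intronic sequence, had 28 WT-only sites among 139 (20.1%, 14.3 to 27.6), assigned to 12 of 28 genes, and 15 of their 121 distal KO sites (12.4%) were KO-only. The strongest were those of Ptprd (fold enrichment 9.32, pileup 22), Dlg2 (8.51, pileup 20) and Macrod2 (7.99, pileup 21). The Macrod2 site was in an intron, and the nearest KO peak was 419 kb away. In this list 78.6% of the WT-only sites were intronic, against 49.4% of all of them.

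Short lists of genes that the study's text names as changed in KO cells, 8 as higher and 6 as lower, had no WT-only distal site. These lists do not cover every gene that the study reports as changed, so the result holds for the listed genes only. Those named as higher in KO had 0 of 11 distal WT sites in the set, which allows a share of up to 27.3% by the limit of 3 counts of the total and of 25.9% by the Wilson interval, and 3 of 12 distal KO sites were KO-only. Those named as lower in KO had 0 of 3, with a Wilson interval up to 56.1%. The study names these genes for their transcript levels in WT and KO cells. For Cebpa, it also reports greater accessibility of the locus in KO HSCs by ATAC-seq, with genome-wide chromatin status unaffected. The counts are too small to set these genes apart from other genes.

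Sequence strings of several blood factors were less frequent at the WT-only sites than at overlapped distal WT sites. Both strands of the 200-bp window were searched for 12 strings, in which N is any base. For the ETS family these were GAGGAAGT, the longer form that PU.1 prefers, and the general form CCGGAAG. For RUNX factors the string was TGTGGTT, for GATA factors it was AGATAA and for E-box proteins such as TAL1 it was CAGCTG. The AP-1 string was TGANTCA, and the C/EBP string was TTGCNNAA. STAT factors were searched as TTCCNGGAA and the interferon response element as GAAANNGAA. The insulator protein CTCF was represented by AGGGGGC, the homeobox factors of the MEIS family by TGACAG and the KLF family by CCACCC. No string contains another, though matches of different strings can share a few letters. At least 1 of the PU.1, ETS, RUNX, GATA and E-box strings was in 36.8% of the WT-only sites, 45.2% of the overlapped sites and 43.6% of all distal WT sites, and the WT-only sites differed from the overlapped ones by -8.40 points (-10.5 to -6.26). At like pileup, the shares were 38.1% and 40.6%, and the interval of the difference included 0 (-5.84 to 0.867).

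The PU.1 and RUNX strings had a lower share at like pileup in the 200-bp window, and how far their intervals stayed clear of 0 depended on the window. PU.1 letters were in 5.72% of the WT-only sites, 9.06% of the overlapped sites and 8.42% of all distal WT sites, and at like pileup in 5.53% and 7.73%, a difference of -2.20 points (-3.88 to -0.53). RUNX letters were in 10.1%, 14.5% and 13.7% of the same groups, and at like pileup in 9.58% and 12.1%, a difference of -2.54 points (-4.65 to -0.434). PU.1 letters were also less frequent at the WT-only sites than at the KO-only sites, where 8.95% held them (difference -3.23 points, -4.71 to -1.75), and so were RUNX letters (12.5%, difference -2.43 points, -4.23 to -0.633). In a 100-bp window the like-pileup difference was -1.18 points for PU.1 (-2.60 to 0.227) and -1.85 for RUNX (-3.48 to -0.221). In a 400-bp window it was -3.18 for PU.1 (-5.07 to -1.29) and -2.06 for RUNX (-4.55 to 0.426). The direction was the same in all 3 windows, and for each string the interval included 0 in 1 of them.

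At like pileup, MEIS letters were in 14.4% against 17.2% (difference -2.78 points, -5.26 to -0.296) and KLF letters in 16.1% against 18.8% (-2.69 points, -5.28 to -0.105). Neither interval stayed clear of 0 in the other windows. MEIS differed by -1.18 points at 100 bp (-3.08 to 0.717) and -2.68 at 400 bp (-5.76 to 0.407), and KLF by -1.56 (-3.56 to 0.447) and -1.09 (-4.28 to 2.10). For the other 8 strings, the interval of the like-pileup difference at 200 bp included 0. Away from that window it excluded 0 for the E-box at 400 bp (-3.45 points, -6.36 to -0.536) and for the interferon response element at 100 bp (-1.61 points, -3.17 to -0.0399). GATA letters, at 13.2% against 11.5%, and CTCF letters, at 5.69% against 4.75%, were the most apart in the other direction, by 1.71 points (-0.576 to 3.99) and 0.936 points (-0.61 to 2.48), and CTCF turned to -0.484 points at 400 bp (-2.31 to 1.34). The intervals were not adjusted for the number of strings compared. Over all distal WT sites, the 12 strings had shares from 0.826% for STAT to 18.2% for KLF. Among the 110 WT-only sites with a pileup of at least 20, CTCF letters were in 16 (14.5%, 9.16 to 22.3). Their share over all distal WT sites, not matched for pileup, was 4.95%. At 100 bp the shares were 10.0% and 2.78%, and at 400 bp 17.3% and 7.86%. For every other string, the 200-bp interval of the 110 sites included the share of all distal WT sites.

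**Figure D5:**
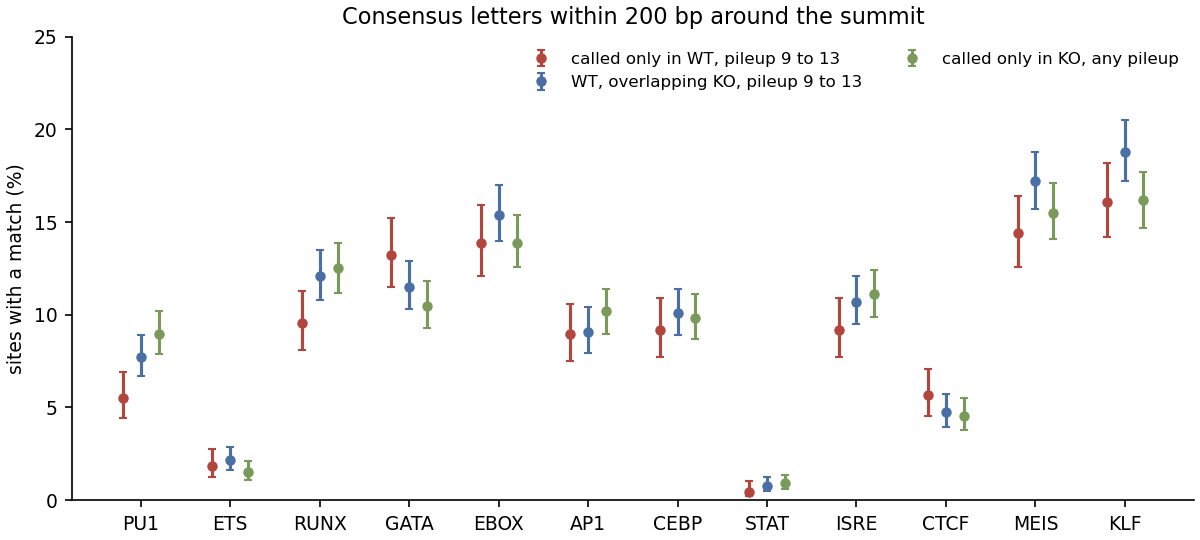
Percentage of sites whose 200-bp window holds each of 12 consensus strings (vertical axis), with 95% Wilson intervals, for WT-only distal sites and overlapped distal WT sites of pileup 9 to 13 and for KO-only distal sites of any pileup. PU.1 letters (PU1) stand at 5.53% in the WT-only sites, 7.73% in the overlapped sites and 8.95% in the KO-only sites, and RUNX letters at 9.58%, 12.1% and 12.5%.

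Sites just inside and just outside each limit of the definition had overlapping ranges of fold enrichment, given here in parentheses. At the width limit, sites of 400 bp near Rab23 (fold enrichment 2.98) and in Zranb3 (7.67) were inside, and sites of 399 bp in Il1r1 (3.65) and near Ttc6 (6.84) were outside. At the start site limit, sites 2505 bp from a start in Auts2 (5.01) and 2508 bp from a start near Hgfac (5.17) were inside, and sites at 2483 bp near Postn (6.84) and 2481 bp near Dus3l (2.65) were outside. At the overlap limit, sites near Abt1 (3.27) and in Psd3 (4.03) ended 12 and 18 bp from a KO peak and were inside, and sites assigned to Arid1b (3.65) and Rspo4 (4.10) shared 7 bases with a KO peak and were outside. Few overlapped sites came so close to the limit, since 60 of the 10267 (0.584%) shared fewer than 100 bases.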

How the data were processed

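The deposited data were MACS2 peak and summit lists, 1 per genotype, and labels of both samples of a genotype name the same list. By the authors' account, reads were trimmed with Trim Galore, aligned to mm10 with Bowtie2, cleaned with Picard and called with MACS2 without a fragment model. Versions, extension size and pooling of replicates are not given in the sources used here. Each deposited list gives the authors' fold enrichment, −log10 values of p and q from the authors' caller, a display score and the summit offset. The fold enrichment is a linear ratio of the pileup at the summit to the local background, with 1 added to each. The score was not used.

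Pileup and background were solved for each peak from the deposited fold and −log10 p, and a whole-number pileup matched within 0.001 for 99.99% of peaks. The recovery, gap and distance steps were tested on simulated data. Positions and names came from GENCODE M21, and sequence and repeat masking from GRCm38.p6. A summit took the first that applied of coding exon, UTR, other exon, intron and intergenic. Shares have 95% Wilson intervals and differences of shares Wald intervals. Python 3.11.15, pandas 2.3.3, numpy 2.4.6 and SciPy 1.17.1 were used.

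The members, gene lists and motifs were chosen with earlier results of these data known. The text names the 20 sites of highest fold enrichment, the 8 genes with most sites, up to 4 genes per list by their strongest site, and the 2 sites nearest each limit on either side. A gene that this rule names is not reported here. Read totals are unknown. Alternatives changed the q threshold, width, distance, overlap and gene assignment.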

Additional observations from a re-analysis of the deposited data

How the results depend on the processing

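No paired analysis was possible because there was 1 list for WT and 1 for KO, and for the same reason no replicate could be left out in turn. When peaks of either list needed a −log10 q of 5 or more, 1588 sites were left, 15.8% of the distal WT sites, with a median fold enrichment of 5.93 and a median gap to a KO peak of 18200 bp. With that threshold in WT only, there were 1091 sites (10.9%), with medians of 5.98 and 16430 bp. Counting a site as WT-only when its summit lay in no KO peak gave 22.4% and a median gap of 11090 bp. Without a minimum width, there were 5965 sites (30.4%) with a median fold enrichment of 4.56, and with 600 bp, 877 sites (11.9%). Requiring 10 kb from a start left 1550 sites, 47.4% of them intronic, with a median gap of 18260 bp and a median start distance of 23360 bp. The start distance was 12040 bp with a limit of 1 kb and 12460 bp when the limit used protein-coding starts only. The cause of these shifts was not tested beyond what each definition takes in. Naming genes by the nearest start of any type raised the share for the lymphoid list from 13.9% to 32.0%. Counts stayed within 1.5 times and other values within their own spread in the remaining alternatives. Of the like-pileup motif differences, 2 changed sign, both with intervals that included 0 throughout, C/EBP from -0.896 points to 0.864 at 100 bp and CTCF from 0.936 to -0.484 at 400 bp. Read depth is unknown, and weak peaks near the calling limit can be missed in either list, so absence from the KO list is absence of a call.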

Other observations

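Families of genes recognised by their symbols were added after the other values had been seen. Collagen genes, which encode fibrous proteins of the extracellular matrix, had 12 WT-only sites among 37 distal WT sites (32.4%, 95% Wilson interval 19.6 to 48.5), assigned to 9 of 43 genes, and 11 of their 40 distal KO sites (27.5%) were KO-only. That was the highest share of the 6 families, and its interval began just above the 19.3% of all genes. The median pileup of the distal WT sites of collagen genes was 15, against 17 over all genes. Solute carriers had 40 among 212 (18.9%, 14.2 to 24.7), zinc finger proteins 29 among 183 (15.8%, 11.3 to 21.8), ion channels 16 among 101 (15.8%, 9.99 to 24.2), cadherins and protocadherins 10 among 56 (17.9%, 10.0 to 29.8) and olfactory and vomeronasal receptors 10 among 53 (18.9%, 10.6 to 31.4). Olfactory and vomeronasal receptor genes are known mainly for their expression in sensory tissue, and their share of WT-only sites lay close to that of all genes. Among distal WT sites with a pileup of 9 to 13, of which 36.7% were WT-only over all genes, the share was 63.6% for collagens (7 of 11), 42.1% for cadherins and protocadherins (8 of 19), 36.4% for olfactory and vomeronasal receptors (4 of 11), 35.1% for solute carriers (20 of 57), 30.0% for zinc finger proteins (15 of 50) and 24.2% for ion channels (8 of 33).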
